A study of Mus musculus with 4 samples.

Results

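The D cyclins Ccnd1, Ccnd2 and Ccnd3, their partner kinases Cdk4 and Cdk6, the CDK inhibitors Cdkn1a, Cdkn1b, Cdkn1c and Cdkn2c, and the growth regulator Myc were followed in mouse mammary tissue with and without STAT5. Members were all probe sets that the platform annotation assigns to exactly 1 of these 10 symbols. This gave 26 of the 45037 probe sets on the array. No measured value entered this assignment, but the 10 genes were chosen with earlier results of these data known. RNA came from mammary tissue labelled STAT5 KO (2 arrays) or STAT5 WT (2 arrays), and the design text speaks of 2 mice per genotype sampled at 6 days, without naming the event the days are counted from. The labels give no treatment, and they do not state the allele, the strain, the sex, the age, or whether the deletion covered Stat5a, Stat5b or both, the whole animal or the epithelium alone. Nothing in the labels says whether the RNA of an array was pooled, so each array was taken as 1 mouse, and p-values here reflect variation among 4 arrays, which may be technical. The series title concerns the control of luminal progenitor development by STAT5A.

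D-type cyclins are the part of the cell cycle engine that reads growth signals. They bind and activate CDK4 and CDK6 in G1, and these kinases phosphorylate the retinoblastoma protein, which releases E2F transcription factors and lets the cell enter S phase. The INK4 inhibitors, here p18 from Cdkn2c, bind the kinases themselves, whereas p21 (Cdkn1a), p27 (Cdkn1b) and p57 (Cdkn1c) bind cyclin-CDK complexes. Myc is a transcription factor of the basic helix-loop-helix leucine zipper class that pairs with Max on E-box DNA and drives growth and nucleotide and ribosome production. In the mouse mammary gland, cyclin D1 is known to be needed for the alveolar growth of pregnancy, a process that also depends on prolactin, STAT5 and the RANK pathway.

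Signals are linear MAS5 values that were scaled alike on each array, with medians of 121.2 and 124.3 on KO arrays and 131.2 and 130.5 on WT arrays. Detection calls were not used, so no signal is called present or absent. The 3' to 5' signal ratio ran from 1.12 to 1.21 for actin and from 0.771 to 0.799 for Gapdh over the 4 arrays. The labelled tissue held RNA of epithelium (10 of 10 markers tested) and fat (7 of 7 measured markers tested). The brighter Stat5a probe set read 1836 and 861 on KO arrays and 2307 and 2061 on WT arrays, and the brighter Stat5b probe set read 1069 and 712 on KO arrays and 1522 and 1506 on WT arrays. A probe set outside the deleted part would not check the genotype, and the deleted part is not known, so KO and WT are used as labelled. In bulk tissue, fewer cells of a type and less RNA per cell cannot be told apart.

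Of these genes, Ccnd1 had the only probe set that passed the test, and it was lower in KO. The directions differed within the group: Ccnd1, Cdk4, Cdk6, Cdkn1c and Myc lay below WT without overlap in all of their tested probe sets, while Ccnd2, Ccnd3, Cdkn1a, Cdkn2c and the tested Cdkn1b probe set had positive differences or overlapping signals. Of the 26 probe sets, 24 were bright enough to be tested, and 1 of these passed as lower and 0 as higher in KO at an adjusted p below 0.05 in limma. Among all tested probe sets, 1.04% passed as lower and 0.955% as higher, and 1 called probe set of 24 does not set the genes apart from that background. At an unadjusted p below 0.05, 8 of the 24 were lower and 1 was higher, against 10.6% and 9.01% of all tested probe sets. KO arrays lay below WT arrays without overlap for 10 of the 24 probe sets and above them for 6, against 28.0% and 23.9% of all tested probe sets. Probe sets of 1 gene read the same transcript, so these counts are not of independent measurements. By the brightest probe set, 6 of the 10 genes had a negative and 4 a positive log2 difference between KO and WT, with a median of -0.43, against -0.01 over all 11360 tested genes. The median of the 10 genes was -0.15 without KO replicate 1 and -0.24 with arrays centred on epithelium markers.

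**Figure D1:**
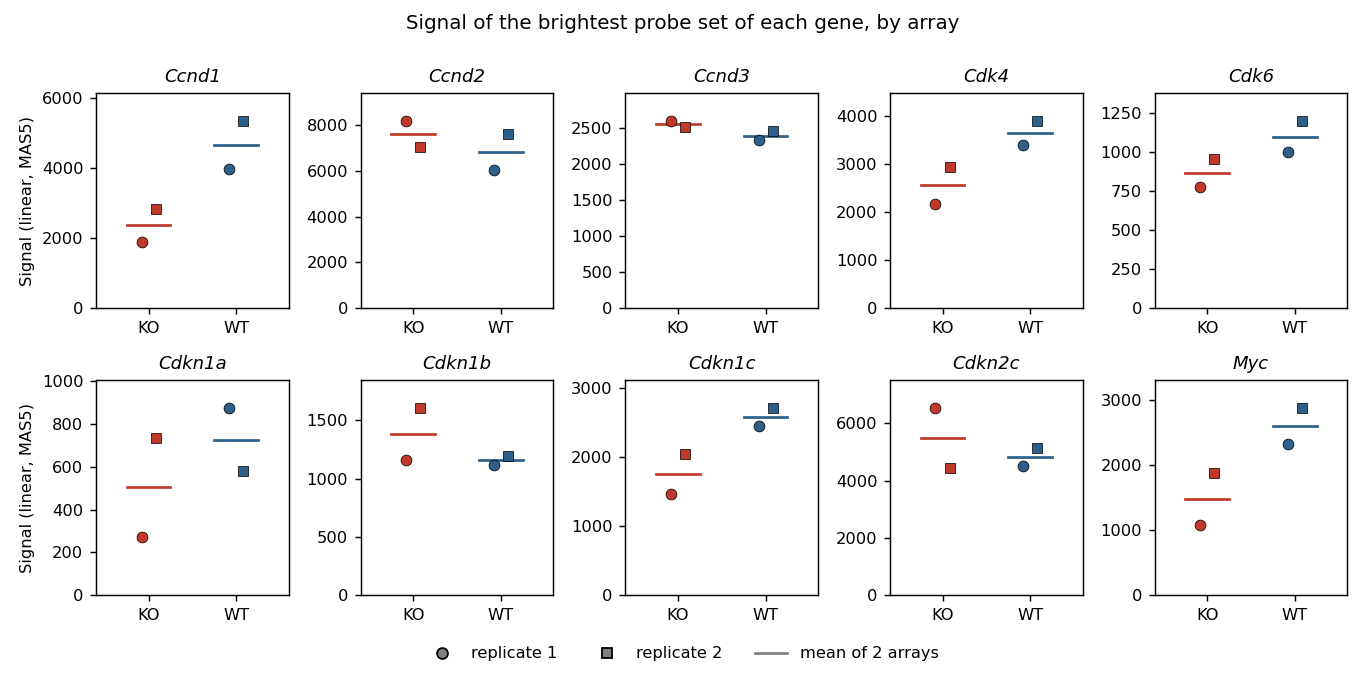
Linear MAS5 signal of the brightest probe set of each gene on each array, with KO at the left and WT at the right of each panel. Circles and squares are replicates 1 and 2, for which the labels state no pairing of mice, and bars are means of 2 arrays. Ccnd1, Cdk4, Cdk6, Cdkn1c and Myc show KO below WT with no overlap, and the KO points of Cdkn1a and Myc are the farthest apart relative to their mean.

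Ccnd1, the gene of cyclin D1, was lower in KO in each of its 3 probe sets. Probe set 1417419_at read 588 and 821 on KO arrays and 1635 and 2191 on WT arrays. The higher KO array stood at 50.2% of the lower WT array, and the KO mean at 36.8% of the WT mean. The log2 difference came to -1.43 (SE 0.22, 95% interval -1.94 to -0.91, limma adjusted p = 0.0352), which made it the 227th smallest p of the 22519 tested probe sets. Probe set 1417420_at read 1573 and 2028 on KO arrays and 2951 and 4090 on WT arrays, which is -0.95 on the log2 scale (SE 0.20, limma adjusted p = 0.0640). The brightest Ccnd1 probe set, 1448698_at, averaged 2359 ± 672 on KO arrays and 4649 ± 973 on WT arrays (SD, n = 2 each), which is -0.99 on the log2 scale (SE 0.23, limma adjusted p = 0.0792). The 3 probe sets thus gave one direction and KO levels of 36.8% to 51.1% of WT, and only the first crossed the threshold. Averaged over its probe sets, Ccnd1 differed by -1.12 (95% interval -1.65 to -0.59, limma adjusted p = 0.0564 over all genes).

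The Ccnd1 call was lost when either WT array was left out. Calls over all tested probe sets also became fewer then, so the loss is not particular to Ccnd1. Leaving out an array leaves 1 array in a genotype, so in each such fit the spread comes from the other genotype's pair and from limma's variance trend over all probe sets, and the lone array is assumed to vary alike. Calls made in this way, here and for the genes described next, show what rests on 1 array and are not support for a difference. Without WT replicate 1 the log2 difference of 1417419_at was -1.63 (limma adjusted p = 0.0564), and without WT replicate 2 it was -1.22 (adjusted p = 0.164). Leaving out either KO array kept the call, with an adjusted p of 0.0311 for KO replicate 1 and 0.00735 for KO replicate 2 left out. With KO replicate 1 as the lone KO array, the other Ccnd1 probe sets were at -1.14 (adjusted p = 0.0264) and -1.28 (adjusted p = 0.0150). With arrays centred on epithelium markers the difference was -1.23 and the call was lost (adjusted p = 0.138).

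Ccnd2 and Ccnd3, the genes of cyclins D2 and D3, did not pass in any probe set. The brightest Ccnd2 probe set, 1434745_at, read 8168 and 7025 on KO arrays and 6034 and 7627 on WT arrays, so the groups overlapped. Its log2 difference was 0.16 (95% interval -0.21 to 0.53, limma adjusted p = 0.629). The 7 Ccnd2 probe sets gave log2 differences from -0.09 to 0.16, and KO means from 88.9% to 113% of WT. Probe set 1416122_at had the narrowest interval of these, from -0.12 to 0.44, which leaves out a fall of the size seen for any Ccnd1 probe set. Whether the Ccnd1 and Ccnd2 differences themselves differ was not tested.

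Ccnd3 gave 2593 and 2511 on KO arrays and 2326 and 2453 on WT arrays in its brightest probe set, 1415907_at. KO lay just above WT here, with a log2 difference of 0.09 (95% interval -0.20 to 0.39, limma adjusted p = 0.727). A dim Ccnd3 probe set, 1438805_at, stood apart from it, with 196 and 258 on KO arrays and 103 and 108 on WT arrays, a KO mean of 215% of WT. The groups differed by 0.99 on the log2 scale (SE 0.22, limma adjusted p = 0.0729), and it was the 1 probe set of these genes that was higher at an unadjusted p below 0.05. It passed the filter on dim probe sets, set at a signal of 125.9, through its KO arrays, so its place among the tested probe sets depends on the difference. The third Ccnd3 probe set, 1444323_at, gave 0.24 (adjusted p = 0.564).

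**Figure D2:**
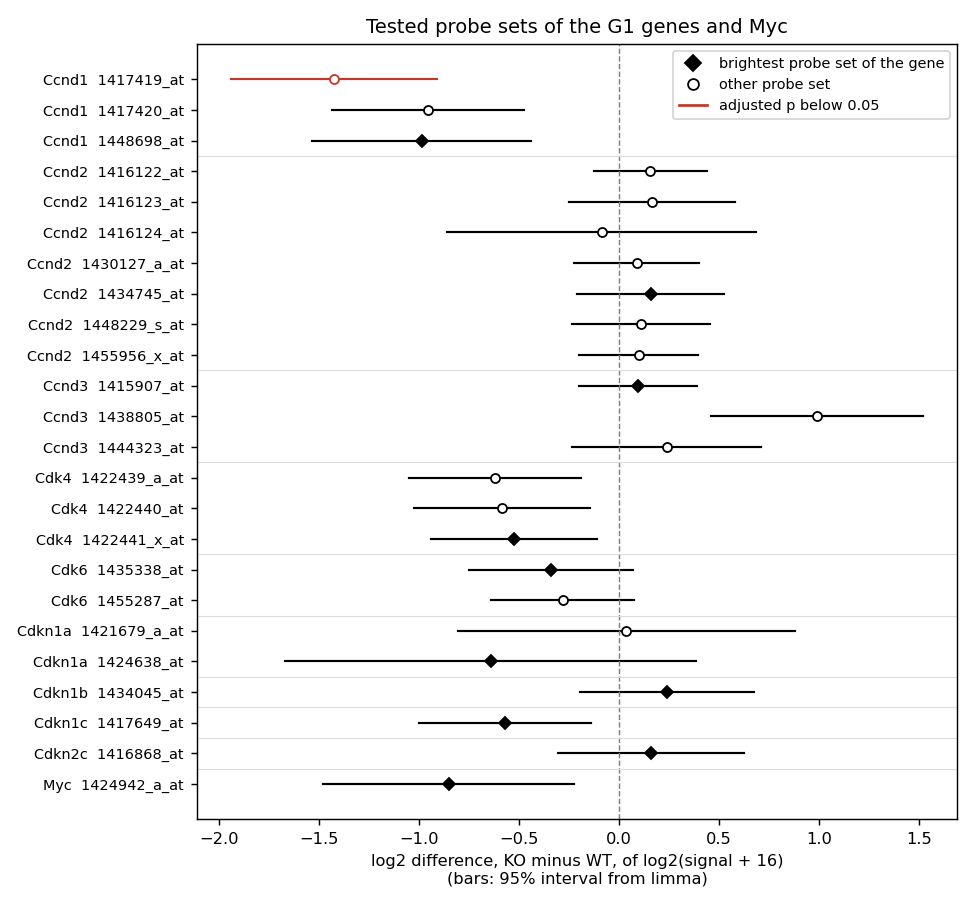
Log2 difference between KO and WT, on the log2(signal + 16) scale, for the 24 tested probe sets, with 95% intervals from limma. Diamonds mark the brightest probe set of a gene and open circles its other probe sets. The Ccnd1 and Cdk4 probe sets lie left of 0, those of Ccnd2 lie around 0, and 1438805_at of Ccnd3 lies apart from its gene's other probe sets at 0.99.

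Cdk4, the kinase partner of the D cyclins, read lower in KO in all 3 probe sets, and none passed. Its brightest probe set, 1422441_x_at, read 2174 and 2933 on KO arrays and 3399 and 3890 on WT arrays. The groups did not overlap, and KO replicate 1 was the lowest array. KO minus WT was -0.52 on the log2 scale (SE 0.17, 95% interval -0.94 to -0.11, limma adjusted p = 0.170). The suffix of this probe set marks probes that may also match other transcripts. The other probe sets gave -0.62 for 1422439_a_at (limma adjusted p = 0.130) and -0.59 for 1422440_at (adjusted p = 0.151), so the KO means of the 3 ran from 65.0% to 70.1% of WT.

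The Cdk4 promoter is shown because, of the promoter windows found for these genes, it held the most copies of the E-box CACGTG, the letters known to be bound by Myc with Max. Neither Cdk4 nor Myc passed the test. The 250 bases before the Cdk4 start (RefSeq, GRCm38.p6, plus strand, chr10:127063285-127063534) are printed 5′ to 3′, with each E-box CACGTG in capitals.
Cdk4: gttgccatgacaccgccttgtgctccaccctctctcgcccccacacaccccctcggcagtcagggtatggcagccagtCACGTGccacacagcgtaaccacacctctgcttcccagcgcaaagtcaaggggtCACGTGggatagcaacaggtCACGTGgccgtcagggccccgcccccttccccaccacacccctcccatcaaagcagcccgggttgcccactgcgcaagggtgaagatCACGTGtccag
The motif begins 172, 118, 98 and 11 bases before the start, at positions -172, -118, -98 and -11, and it reads the same on both strands. Of 32851 promoter windows in the RefSeq table, each from 250 bases before to 50 after a start, 7.15% held at least 1 such E-box and 8 windows (0.0244%) held 4 or more. The table had windows for 6 of the 10 genes, 9 in all, and 3 of these windows held the motif, those of Cdk4, Cdk6 and 1 of 2 Cdkn2c starts. The Cdk6 window held it at position -220, shown in the 30 bases of chr5:3343661-3343690 on the plus strand.
Cdk6: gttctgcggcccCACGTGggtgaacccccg
The STAT motif TTCNNNGAA, which also reads the same on both strands, was in 0 of the 9 windows, against 8.30% of all windows. Ccnd1, Ccnd2, Cdkn1c and Myc had no window, so neither motif was looked for in their promoters. A match is a description of letters, and no binding was measured here.

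Cdk6, the second kinase partner of the D cyclins, differed less. Probe set 1435338_at read 776 and 957 on KO arrays and 999 and 1198 on WT arrays, and 1455287_at read 677 and 675 on KO arrays and 773 and 881 on WT arrays. KO was below WT in both, by -0.34 (95% interval -0.75 to 0.07, limma adjusted p = 0.338) and -0.28 (adjusted p = 0.357). The third Cdk6 probe set, 1460291_at, was too dim to be tested, with 40.7 and 40.3 on KO arrays and 89.2 and 99.0 on WT arrays.

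The CDK inhibitors had no common direction, and none passed. Cdkn1c, the imprinted gene of p57, read 1471 and 2041 on KO arrays and 2456 and 2707 on WT arrays. Its groups did not overlap, and KO minus WT was -0.57 on the log2 scale (SE 0.18, 95% interval -1.00 to -0.14, limma adjusted p = 0.154). With KO replicate 1 as the lone KO array Cdkn1c was at -0.80 (adjusted p = 0.0397), and with KO replicate 2 as the lone KO array it was at -0.33 (adjusted p = 0.386).

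Cdkn1a, the p53 target that encodes p21, varied more between arrays of a genotype than between genotypes. Its brighter probe set, 1424638_at, read 274 and 736 on KO arrays and 874 and 581 on WT arrays. The KO arrays differed 2.69-fold from each other and spanned the lower WT array. KO minus WT was -0.64 on the log2 scale (SE 0.43, 95% interval -1.67 to 0.39, limma adjusted p = 0.468). It depended on the KO array used: with KO replicate 1 alone against both WT arrays it was -1.33 (limma adjusted p = 0.0304), a fit that leaves out the spread between the KO arrays, and with KO replicate 2 alone it was 0.05 (adjusted p = 0.960). Probe set 1421679_a_at read 299 and 475 on KO arrays and 521 and 257 on WT arrays, with a log2 difference of 0.04 (adjusted p = 0.969), so Cdkn1a has no settled direction here.

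Cdkn1b, the gene of p27, read 1162 and 1602 on KO arrays and 1113 and 1197 on WT arrays in probe set 1434045_at. KO replicate 1 lay between the WT arrays, and the log2 difference was 0.24 (95% interval -0.20 to 0.67, limma adjusted p = 0.532). Its other probe set, 1419497_at, was too dim to be tested and pointed the other way, with 17.6 and 29.8 on KO arrays and 51.0 and 55.1 on WT arrays. Cdkn2c, the gene of the INK4 inhibitor p18, read 6527 and 4446 on KO arrays and 4516 and 5147 on WT arrays. The KO arrays lay on either side of the WT arrays, and the log2 difference was 0.16 (95% interval -0.30 to 0.62, limma adjusted p = 0.706).

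Myc was lower on both KO arrays, and the size of the difference depended on which KO array was used. Its probe set, 1424942_a_at, read 1075 and 1883 on KO arrays and 2319 and 2872 on WT arrays. KO replicate 1 stood at 41.4% and KO replicate 2 at 72.5% of the WT mean. KO minus WT was -0.85 on the log2 scale (SE 0.26, 95% interval -1.48 to -0.22, limma adjusted p = 0.147). With KO replicate 1 alone against both WT arrays it was -1.25 (limma adjusted p = 0.0121), again without the spread between the KO arrays, and with KO replicate 2 alone it was -0.45 (adjusted p = 0.285).

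**Figure D3:**
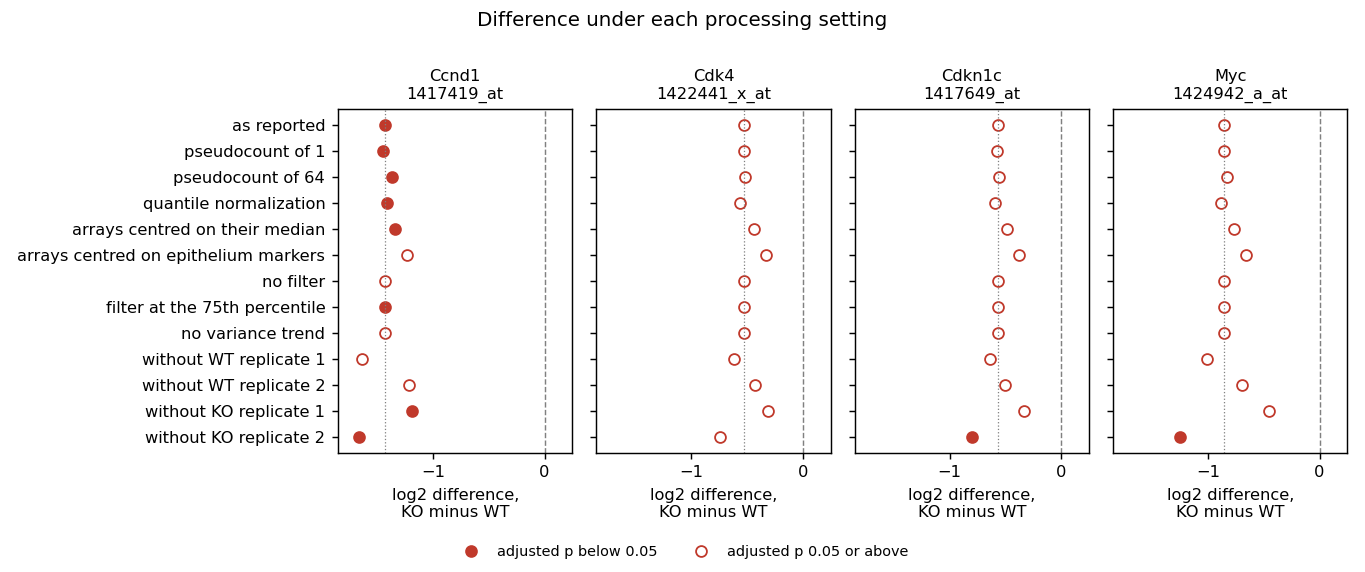
Log2 difference between KO and WT under each processing setting for 1 probe set each of Ccnd1, Cdk4, Cdkn1c and Myc, with filled points where the limma adjusted p was below 0.05. All differences are negative, and those without KO replicate 1 are smaller than those without KO replicate 2, for Myc -0.45 against -1.25.

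The wider Myc network gave no call. Of 9 tested members 0 passed in either direction, with a median log2 difference of 0.19. For the same 9 probe sets the median difference from the WT mean was 0.04 on KO replicate 1 and 0.17 on KO replicate 2. The largest difference was that of Mycl, the L-Myc gene, with 573 and 817 on KO arrays and 53.2 and 199 on WT arrays. Its groups did not overlap, but its WT arrays lay far apart, and the log2 difference of 2.52 did not pass (SE 0.50, limma adjusted p = 0.0567). The mean of its WT arrays was under the filter limit, so it was tested through its KO arrays, and its size against WT is uncertain. With all 4 arrays, Mycl passed with a pseudocount of 64 (2.09, limma adjusted p = 0.0458). It also passed with arrays centred on epithelium markers (2.71, limma adjusted p = 1.2e-08). In 7 of its 11 alternative settings it stayed uncalled. With a lone WT or KO array it was at 3.34 without WT replicate 2 and at 2.77 without KO replicate 1. Max, the binding partner of Myc, read 239 and 229 on KO arrays and 377 and 325 on WT arrays (-0.55, adjusted p = 0.161). Among 12 genes known as Myc targets, 11 of ribosome, nucleotide and polyamine production and the lactate dehydrogenase gene Ldha, 0 passed and 12 had a negative difference. All but Ldha, 11 of the 12, lay below WT without overlap, against 27.5% of all tested genes. Their median was -0.48. The largest of these differences was that of Odc1, the enzyme that commits ornithine to polyamine synthesis, with 1551 and 1921 on KO arrays and 2684 and 2997 on WT arrays (-0.71, adjusted p = 0.0678), with -0.86 for KO replicate 1 as the lone KO array (adjusted p = 0.0307). Nop58, a nucleolar protein of ribosomal RNA modification, followed at -0.67 (adjusted p = 0.104).

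Downstream of the D cyclins, genes of the cyclin E and CDK2 step, of the E2F factors and of S phase and mitosis included falls that passed. These lists, like the Myc targets, were chosen with earlier results of these arrays known, so their counts are no independent evidence. In the cyclin E and CDK2 list 2 of 10 tested genes fell, 0 rose and 8 did not pass, with a median of -0.55, or -0.34 without KO replicate 2. Among all tested genes 1.36% passed as lower and 1.21% as higher. Skp2, the ubiquitin ligase subunit that marks p27 for destruction, read 91.7 and 131 on KO arrays and 369 and 508 on WT arrays (-1.84, SE 0.25, limma adjusted p = 0.0308). Ccna2, the gene of cyclin A2, read 278 and 446 on KO arrays and 1054 and 1480 on WT arrays (-1.78, SE 0.26, adjusted p = 0.0331). Both calls were lost without WT replicate 1 (limma adjusted p = 0.0528 for Skp2 and 0.0559 for Ccna2) and without WT replicate 2 (0.149 and 0.159).

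Of 13 Rb and E2F genes tested, 3 fell, against 1.36% of all tested genes, 0 rose and 10 did not pass. The median of the 13 was -0.27. The 3 were E2f2 (52.8 and 62.1 on KO arrays, 339 and 200 on WT arrays), E2f8 (39.3 and 82.9 on KO arrays, 239 and 321 on WT arrays) and E2f1 (291 and 260 on KO arrays, 531 and 594 on WT arrays). E2f1 and E2f2 encode activator E2F factors and E2f8 an atypical repressor. Their log2 differences were -1.92 (limma adjusted p = 0.0352), -1.99 (adjusted p = 0.0421) and -0.99 (adjusted p = 0.0440). The KO signals of E2f2 and E2f8, and that of Skp2 on KO replicate 1, lay below the KO array medians, and E2f2, E2f8 and Skp2, whose KO means were under the filter limit, were tested through their WT arrays, so the sizes of these falls are uncertain. Without either WT array 0 of the 3 passed: E2f2 and E2f8 were then too dim to be tested, and E2f1 had an adjusted p of 0.111 without WT replicate 1 and 0.231 without WT replicate 2. E2f1 was also not called without KO replicate 2 (0.0514), with quantile normalization (0.0525), with arrays centred on their median (0.0531) or on epithelium markers (0.673), without a variance trend (0.0535) and with no filter (0.112).

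Of 24 tested genes of S phase and mitosis, 11 fell, 0 rose and 13 did not pass, and all 24 lay below WT without overlap. Over all tested genes, 1.36% passed as lower and 27.5% lay below WT without overlap. The median was -1.33. The number that fell was 0 without WT replicate 2, 5 without WT replicate 1, 7 without KO replicate 1 and 22 without KO replicate 2. Mcm6, a subunit of the replication helicase, read 737 and 993 on KO arrays and 2571 and 3123 on WT arrays (-1.71, limma adjusted p = 0.0184). Mcm5, another subunit, fell by 1.64 (adjusted p = 0.0236), Top2a, the topoisomerase of dividing cells, by 1.63 (adjusted p = 0.0308) and Bub1, a mitotic checkpoint kinase, by 1.72 (adjusted p = 0.0324). Bub1 read 97.4 and 110 on KO arrays and 304 and 469 on WT arrays. Of the 11, Bub1 and Cdc6 had KO means under the filter limit and were tested through their WT arrays, so the sizes of their falls are uncertain. These genes are a list known from earlier results of these arrays to be lower in KO, so their count is no independent evidence.

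**Figure D4:**
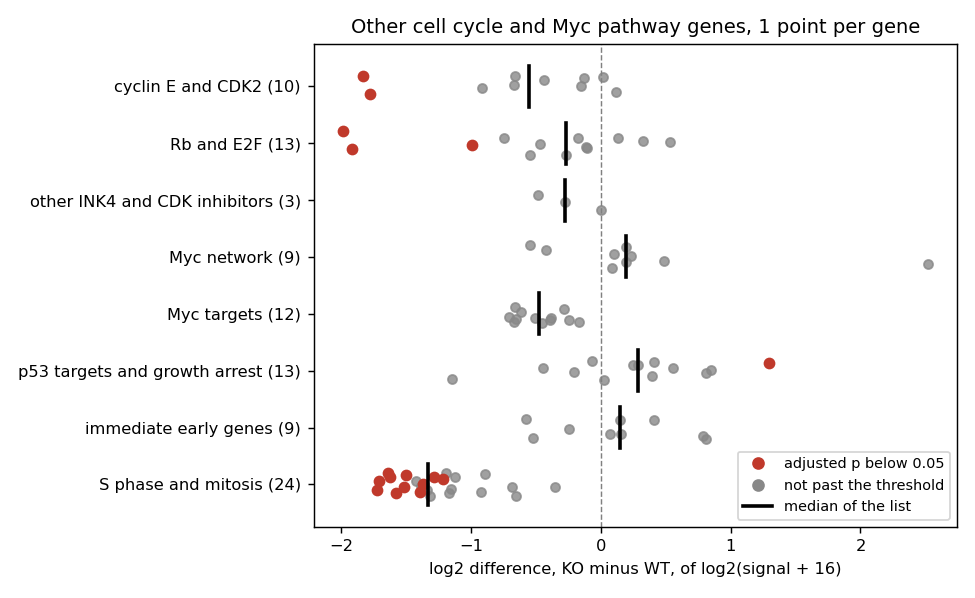
Log2 difference between KO and WT for each tested gene of the other cell cycle and Myc pathway lists, with the number tested in brackets and the list median as a black bar. Red points passed the test. The S phase and mitosis genes lie left of 0 around -1.33, and the Myc targets lie around -0.48 without a call. The p53 target and growth arrest genes lie on both sides of 0, with a median of 0.29.

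Among growth arrest genes 1 call was made, and it was higher in KO. Of 13 p53 target and growth arrest genes tested, 1 rose, against 1.21% of all tested genes, 0 fell and 12 did not pass. The median of the 13 was 0.29, with 9 positive and 4 negative differences. The lowest was that of Gadd45a, at -1.14 (limma adjusted p = 0.0924). The 1 that rose was Plk2, a polo-like kinase, with 3953 and 4550 on KO arrays and 1474 and 2005 on WT arrays (1.29, SE 0.18, limma adjusted p = 0.0310), a call lost without WT replicate 1 (adjusted p = 0.0661). Of 9 immediate early genes, which respond to growth factors and to tissue handling and are given here because Myc and Cdkn1a respond to the same inputs, 0 passed, with a median of 0.14, which was 0.03 without KO replicate 2 and 0.25 without KO replicate 1. Zfp36, an RNA-binding protein of this class, read 1964 and 2819 on KO arrays and 1163 and 1536 on WT arrays (0.81, adjusted p = 0.107), and Dusp1, a MAP kinase phosphatase, overlapped between the groups (0.78, adjusted p = 0.272). Among the other CDK inhibitors 3 were tested and 0 passed, with a median of -0.28 (-0.02 without KO replicate 2) and the largest differences for Cdkn2b, the p15 gene (-0.48, adjusted p = 0.517, but 0.06 without KO replicate 2 and -1.03 without KO replicate 1), and Cdkn3, a CDK phosphatase (-0.28, adjusted p = 0.561).

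Some cell type marker lists also differed between KO and WT, and a link to the genes above was not tested. Epithelium markers had medians of -0.41 and 0.21 on KO replicates 1 and 2, as log2 differences from the mean of the WT arrays, and 0 of 10 passed. The list went both ways: on KO replicate 2, 4 markers lay below the WT mean (Epcam -0.49, Cdh1 -0.56, Cldn7 -0.50 and Esrp1 -0.48) and 6 above it, up to Cldn4 at 1.07, and on KO replicate 1, 7 lay below and 3 above. Their summed signal was 27250 and 43245 on KO arrays and 37934 and 39337 on WT arrays. On KO replicate 2 the Ccnd1 probe set 1417419_at lay 1.19 below the WT mean on the log2 scale, at 42.9% of the WT signal. The other Ccnd1 probe sets, 1417420_at and the brightest, 1448698_at, stood at 57.6% and 61.0% of the WT mean on that array. On the same array Cdk4 stood at 80.5% of the WT mean in 1422441_x_at, and Cdkn1c at 79.1%. Basal and myoepithelial markers had medians of -1.00 and 0.03 on KO replicates 1 and 2, with 1 of 7 called lower. Skeletal muscle markers rose in 5 of 9 tested members, against 1.21% of all tested genes, and all 5 had WT means under the filter limit. The summed signal of the muscle list was 10026 and 5993 on KO arrays and 1475 and 445 on WT arrays. Macrophage markers had a median of 0.54 with 0 of 7 called, and adipocyte, endothelial and fibroblast markers had medians of 0.07, 0.09 and 0.00 with 0 called. Of the lymphocyte markers, 1 of 5 measured for T cells and 0 of 4 measured for B cells were bright enough to be tested. No marker was at a signal of 0. The part of changed cell composition in the Ccnd1, Cdk4 and Myc differences was not tested. Centring on epithelium markers cannot test it, because these markers went both ways and differed between the KO arrays.

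Over the 4 arrays, the genes nearest to Ccnd1 probe set 1417419_at were Mcm3, Chaf1b and Bcl2l14, by Euclidean distance between log2 values centred on each probe set's mean. The distances were 0.03, 0.06 and 0.09 on the log2 scale. Mcm3 is a helicase subunit of DNA replication and Chaf1b a subunit of the chromatin assembly factor of S phase. Bcl2l14 did not pass (limma adjusted p = 0.0517), and its KO mean was under the filter limit. The other Ccnd1 probe sets lay at 0.45 and 0.48, and 262 tested probe sets were nearer than the farther of them, so with 4 arrays the likeness is a description only.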

How the data were processed

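Total RNA from 4 mammary samples was labelled by the Affymetrix protocol, per the labels. The deposited values are linear intensity signals per probe set for which the submitters' processing notes name MAS5. Its version and settings are not given in the sources used here. The trimmed mean was 500.0 on every array, so the authors' scaling was common. Control probe sets (64) were left out, and genes were named through the platform annotation (34945 probe sets with 1 symbol, 932 with several, 9160 unnamed here). All 26 member probe sets matched the gene table by Entrez identifier.

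Signals were taken as log2(signal + 16), which understates changes of dim genes. Probe sets at or above the median of mean log2 values (7.15, a signal of 125.9) were tested, 22519 in all. KO was compared with WT in limma 3.58.1 under R 4.3.3 (lmFit, eBayes with a variance trend), and p-values were adjusted by Benjamini-Hochberg over every tested probe set, with 0.05 as the threshold. The fit was tested on simulated data. An exact permutation test of 2 against 2 cannot pass 0.05 and was not used. A gene's brightest probe set represented it in lists. Named genes were all members, up to 4 called genes per list by smallest p or otherwise up to 2 by largest difference, and the 3 nearest to the member with the smallest p. Cdc6, Gadd45a, Ldha and single cell type markers were named after their values were seen. The members and lists were chosen with earlier results of these data known. Alternatives were other pseudocounts (1, 64), normalizations and filters, no variance trend, each array left out and, added after seeing the data, the mean of a gene's probe sets. The number of arrays limits the precision.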

Additional observations from a re-analysis of the deposited data

How the results depend on the processing

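No paired analysis was done, because the replicate numbers follow sample order and the labels state no pairing of mice. Of 45037 probe sets, 450 passed, against 38 with no filter, 182 with the filter at the 75th percentile and 205 without a variance trend, and from 67 to 1021 with an array left out (67 without WT replicate 2, 157 without WT replicate 1, 1021 without KO replicate 2). The share of calls higher in KO was 47.8%, against 62.4% with arrays centred on their median, 61.0% centred on epithelium markers and 58.2% with the filter at the 75th percentile, and it ran from 34.1% without KO replicate 2 to 74.6% without WT replicate 2. Centring on epithelium markers moved the median difference of all genes to 0.18, which moves every difference up by about that amount. The 1 member probe set lower in KO became 0 centred on epithelium markers, with no filter and without a variance trend (adjusted p = 0.138, 0.110 and 0.0557), and from 0 to 6 when single arrays were left out (0 without either WT replicate, 6 without KO replicate 2). The causes were not tested, except that no filter doubles the probe sets over which p is adjusted. Members higher in KO stayed at 0 in all 12 settings. All tested probe sets of Ccnd1, Cdk4, Cdk6, Cdkn1c and Myc kept a negative sign in every setting, and no called difference changed sign. The Ccnd2 probe sets 1416124_at, 1430127_a_at and 1434745_at, both Cdkn1a probe sets and Cdkn2c changed sign, uncalled, in at least 1 setting. Ccna2, E2f8 and Plk2 were uncalled without a variance trend (adjusted p = 0.0528 for each). The 11 S phase and mitosis genes that fell became 7 with arrays centred on their median and 5 centred on epithelium markers, without a variance trend or with the filter at the 75th percentile. Without a filter the 11 S phase and mitosis, 3 Rb and E2F and 2 cyclin E and CDK2 genes that fell, and Plk2, were all uncalled. Depth is not recorded for arrays, and dim probe sets such as 1460291_at and 1419497_at cannot be placed against background.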

Other observations

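Cyclin and CDK genes outside the lists were taken by their symbols after the data were seen. Of 13 other cyclin genes tested 1 passed, and of 14 other CDK genes 1 passed, with medians of 0.01 and -0.06. Among all tested genes 1.36% passed as lower and 1.21% as higher, and 1 call per group is too few to compare with these shares. Ccnf, the gene of cyclin F, an F-box protein of G2, read 130 and 116 on KO arrays and 329 and 443 on WT arrays (-1.52, limma adjusted p = 0.0322), a call lost without WT replicate 1 (0.0559) or WT replicate 2 (0.160) and with arrays centred on epithelium markers (0.0770). Its KO mean was under the filter limit, so it was tested through its WT arrays. Cdk19, a kinase of the Mediator complex, read 2419 and 2450 on KO arrays and 960 and 990 on WT arrays, a rise of 1.31 (limma adjusted p = 0.0138), a call lost without WT replicate 2 (0.0668). Its paralogue Cdk8, which takes the same place in Mediator, read 1435 and 1679 on KO arrays and 1717 and 1751 on WT arrays (-0.16, adjusted p = 0.595). Whether the differences of Cdk19 and Cdk8 differ was not tested. Ccnc, the cyclin partner of both, gave 0.04 (adjusted p = 0.932).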
